A study of Rattus norvegicus with 16 samples.

Results

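Transcripts of the proteins that neutrophils store in their granules or hold in their cytosol were followed across healing bone defects in the rat. The group held 10 genes chosen by name for their known products: 4 of the primary granules (Mpo, Elane, Prtn3 and Ctsg), 4 of the secondary granules (Camp, Ngp, Ltf and Lcn2) and the 2 subunits of calprotectin (S100a8 and S100a9). The choice was made with earlier results of these data known. All 10 were among the 14476 genes of the table. The study used 4 Sprague-Dawley rats; the labels give no genotype, sex, age or drug. Each rat had an osteotomy on both sides, held by a plate; a PMMA (polymethyl methacrylate, bone cement) spacer filled the gap on one side, as in the Masquelet procedure, and the gap on the other side stayed empty. After 4 weeks of healing, RNA was taken from 4 tissues per rat, which gave 16 libraries. The induced membrane around the spacer (IM) was set against the pre-fibrous non-union tissue of the empty gap (PFNU), and bone next to the spacer (PMMA bone) against bone next to the empty defect (BNED), with n = 4 libraries in each group. All rats carried both kinds of defect, so no group came from an unoperated animal or limb.

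Neutrophil granules are filled in sequence while the cell matures in the marrow. The primary (azurophil) granules are loaded at the promyelocyte stage with myeloperoxidase and serine proteases. The secondary (specific) granules follow at the myelocyte stage, with lactoferrin, the cathelicidin and other antimicrobial proteins. Much of this transcription stops before the cell leaves the marrow, so transcripts of the primary granule genes mark mainly precursors, and protein persists after its mRNA has gone. S100A8 and S100A9 form calprotectin, a calcium- and zinc-binding protein that is abundant in the neutrophil cytosol, and their mRNAs remain in circulating neutrophils and monocytes. Lcn2 (lipocalin 2), a protein that captures bacterial siderophores, is also made by epithelial, stromal and bone cells.

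Promoters are printed for 4 genes: Mpo, Ngp and S100a9, each from another class, and Lcn2, which parted from its class. With the edgeR test used below, Ngp and S100a9 passed in both comparisons of spacer side with empty side. Mpo and Lcn2 passed in neither. The letters run from 250 bases before to 50 bases after the annotated start, on the gene's strand, from RefSeq's GRCr8 assembly, which is not the build used for the counts. RefSeq's promoter table matched 8 of the 10 genes, all but Elane and S100a8. Capitals mark every match to TTNNGCAA (a C/EBP pattern), GAGGAA (a PU.1 core) or TATAAA, on either strand. The Mpo window is chr10:73092152-73092451 on the plus strand, Ngp is chr8:119272355-119272654 on the plus strand, Lcn2 is chr3:36081731-36082030 on the minus strand, and S100a9 is chr2:178490573-178490872 on the minus strand.
Mpo: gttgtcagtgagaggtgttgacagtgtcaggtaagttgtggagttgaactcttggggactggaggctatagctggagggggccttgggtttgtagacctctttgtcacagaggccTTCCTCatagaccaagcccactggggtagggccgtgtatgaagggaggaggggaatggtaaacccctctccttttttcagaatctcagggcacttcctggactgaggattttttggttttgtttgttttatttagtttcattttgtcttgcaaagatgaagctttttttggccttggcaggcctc
Ngp: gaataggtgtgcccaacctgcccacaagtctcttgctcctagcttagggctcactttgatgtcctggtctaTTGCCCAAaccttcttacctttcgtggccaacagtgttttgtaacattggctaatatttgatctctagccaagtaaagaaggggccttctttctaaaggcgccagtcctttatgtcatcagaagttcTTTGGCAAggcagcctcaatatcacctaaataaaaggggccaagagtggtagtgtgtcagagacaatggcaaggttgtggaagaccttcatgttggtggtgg
Lcn2: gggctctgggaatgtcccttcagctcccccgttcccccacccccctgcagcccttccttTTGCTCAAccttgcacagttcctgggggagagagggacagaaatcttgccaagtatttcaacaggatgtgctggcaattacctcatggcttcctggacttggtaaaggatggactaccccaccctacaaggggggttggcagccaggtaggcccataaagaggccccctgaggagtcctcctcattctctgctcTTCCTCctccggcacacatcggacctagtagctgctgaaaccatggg
S100a9: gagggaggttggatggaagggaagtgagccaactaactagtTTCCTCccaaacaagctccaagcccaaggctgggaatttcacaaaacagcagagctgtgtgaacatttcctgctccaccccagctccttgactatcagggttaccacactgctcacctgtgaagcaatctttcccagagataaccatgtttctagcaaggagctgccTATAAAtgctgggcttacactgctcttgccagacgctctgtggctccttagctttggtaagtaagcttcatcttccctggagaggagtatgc
The Ngp window held 2 matches to TTNNGCAA, with first bases at -179 and -52 from the start, and the Lcn2 window held 1, at -191. Of all 33469 promoter windows of this length, 10.6% held that motif, against 2 of the 8 members. GAGGAA stood in 5 of the 8 (Mpo, Prtn3, Ctsg, Lcn2 and S100a9) and in 27.6% of all windows; TATAAA stood in 2 of the 8 (Ctsg and S100a9) and in 14.2% of all windows. No match of one motif overlapped a match of another in the windows printed. Elane and Prtn3 had no protein-coding gene between them on GRCr8, and nor had S100a8 and S100a9, while 9 protein-coding genes lay between Camp and Ngp.

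Values were the authors' raw counts, scaled here to CPM, read counts normalised to library size with TMM factors. Total counts ran from 40472228 to 76815879 per library. Of 14476 genes, 12857 passed a filter on low counts and were tested with edgeR's quasi-likelihood test in 1 model of the 16 libraries. A gene is called here where its Benjamini-Hochberg adjusted p was under 0.05. All 10 members passed the filter, which asked for about 0.190 CPM in at least 4 libraries. Prtn3, Ctsg and Ltf passed through bone libraries, and Ltf reached that level in all 4 libraries of BNED only. A library with no read of a gene could have held up to 0.0352 to 0.0701 CPM of it (3 counts, counting error only). The 4 rats are separate animals, each giving 1 library per group. One library stood apart: PMMA bone of rat 1 held 8.53% of its counts in 15 erythroid genes (globins and other red cell genes), against 0.542% to 1.46% in the other 3 PMMA bone libraries and 4.53% to 7.90% in BNED. Osteocyte and osteoblast genes, read to check the tissue labels, were also high in the IM of rat 3, where Dmp1, an osteocyte matrix gene, stood at 1059 CPM, against 346 to 1647 CPM across the 8 bone libraries.

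Together the 10 genes took 0.00150% to 0.00417% of all counts in IM, 0.00336% to 0.00953% in PFNU, 0.0248% to 0.0581% in PMMA bone and 0.127% to 0.206% in BNED. For 9 of the 10 genes the group means stood in the order IM, PFNU, PMMA bone, BNED from low to high. Lcn2 was the exception, with 16.9 ± 7.91 CPM in IM and 15.3 ± 1.98 CPM in PFNU (SD, n = 4 each). In these bulk tissues, fewer cells of a type and less RNA per cell cannot be told apart.

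**Figure D1:**
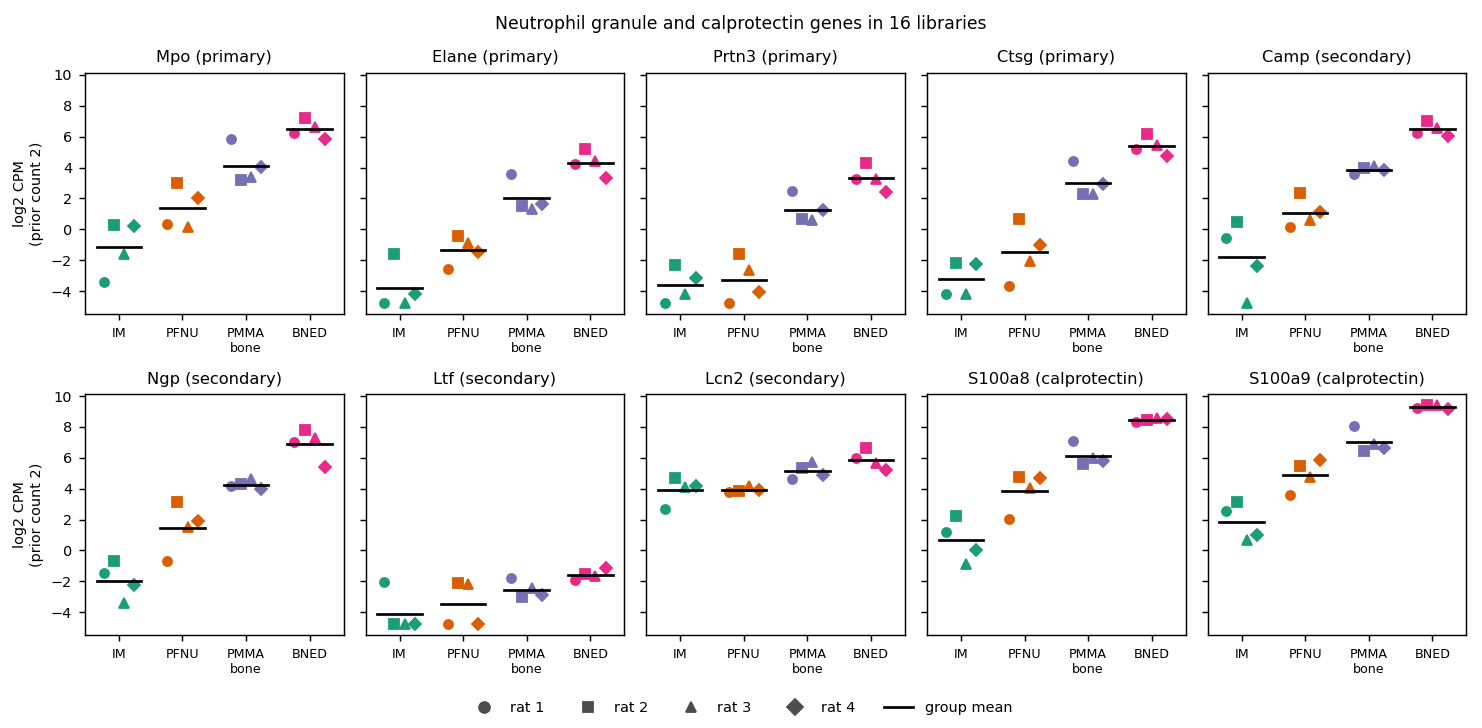
Each panel shows 1 gene, with log2 CPM (prior count 2) on the vertical axis and the 4 groups on the horizontal axis; points are libraries, shaped by rat, and black lines are group means. In 9 panels the group means step up across IM, PFNU, PMMA bone and BNED, whereas Lcn2 is level between IM and PFNU and Ltf lies near the floor throughout.

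In the defect itself, the spacer side was compared with the empty side as IM against PFNU. These are different tissues, so an effect of the spacer and a difference between tissues cannot be told apart. Here and below, fell and rose mean lower and higher in the first-named group. S100a9, S100a8 and Ngp fell in IM, with log2 fold changes of -2.95, -3.10 and -3.75. The other 7 members were not called; their log2 fold changes lay between -2.49 for Ctsg and 0.14 for Lcn2. These 3 of 10 stand against 0.498% of all tested genes called lower and 0.366% called higher. The median log2 fold change over the members was -2.35, against 0.01 over all tested genes.

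S100a9 had 5.87, 8.70, 1.54 and 1.95 CPM in IM of rats 1 to 4, against 11.8, 43.7, 26.6 and 57.3 CPM in PFNU. Every IM library lay below every PFNU library, the sole member for which this held; the same was true of 3.31% of all tested genes. The log2 fold change was -2.95 (SE 0.58, edgeR adjusted p = 0.0300), or 7.70-fold lower. S100a8 had 2.21, 4.75, 0.501 and 1.01 CPM in IM, against 4.15, 26.7, 16.4 and 25.7 CPM in PFNU. The groups touched only where IM of rat 2 exceeded PFNU of rat 1, and S100a8 was 8.58-fold lower in IM (log2 fold change -3.10, SE 0.64, edgeR adjusted p = 0.0349). The 2 subunits kept nearly the same proportion: S100a8 had 0.441 ± 0.107 reads per read of S100a9 in IM and 0.507 ± 0.130 in PFNU (SD, n = 4 each).

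Ngp encodes neutrophilic granule protein, a cystatin-like secondary granule protein described in mouse. It had 0.326, 0.586, 0.0578 and 0.178 CPM in IM, against 0.584, 8.71, 2.80 and 3.71 CPM in PFNU. The PFNU library of rat 1 was as low as the highest IM library, and the other 3 PFNU libraries lay above all IM libraries. Ngp showed the largest fold change of the members in this comparison, 13.5-fold lower in IM (log2 fold change -3.75, SE 0.74, edgeR adjusted p = 0.0300). Camp, the cathelicidin precursor, had 0.653, 1.37, 0 and 0.158 CPM in IM, against 1.06, 5.04, 1.47 and 2.15 CPM in PFNU. IM was lower in each rat, with overlap between rat 2's IM and rat 1's PFNU, and Camp was not called (log2 fold change -2.13, SE 0.72, edgeR adjusted p = 0.167).

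Mpo encodes myeloperoxidase, which makes hypochlorous acid. It had 0.0576, 1.19, 0.289 and 1.11 CPM in IM, against 1.25, 8.04, 1.06 and 4.08 CPM in PFNU. IM was lower in all 4 rats and the groups overlapped slightly; the log2 fold change of -2.44 (SE 0.83) did not pass with edgeR (adjusted p = 0.168), and passed with DESeq2 (adjusted p = 0.0335). The proteases lay close to the floor in defect tissue. Elane, neutrophil elastase, had 0, 18, 0 and 1 counts in IM, against 6, 36, 24 and 14 counts in PFNU (edgeR adjusted p = 0.270). Ctsg, cathepsin G, had 1, 11, 1 and 9 counts in IM, against 2, 81, 10 and 20 counts in PFNU (edgeR adjusted p = 0.214). Prtn3, proteinase 3, had 0, 10, 1 and 4 counts in IM, against 0, 15, 6 and 1 counts in PFNU, with no difference detectable at this depth (edgeR adjusted p = 0.805).

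All 3 calls were lost when IM of rat 1, or PFNU of rat 2, 3 or 4, was left out (0 members called in each case), under limma-voom, in a fit of the 8 defect libraries alone, and with the erythroid level as a covariate. The log2 fold change of Ngp was then -3.59 under limma-voom, -3.68 in the 8 libraries and -3.52 with the covariate, and that of S100a9 was -3.04, -2.85 and -2.04. Mpo, not called in the main fit, stood at -0.78 with the covariate, against -2.44 without it. With rat as a replicate block, Ngp alone was called, and S100a8 and S100a9 had edgeR adjusted p of 0.0648 and 0.0550.

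In bone, Camp, Ngp, S100a8 and S100a9 fell next to the spacer, with log2 fold changes of -2.65, -2.83, -2.24 and -2.14, and the 4 primary granule genes had similar fold changes that did not pass. These 4 of 10 members stand against 1.40% of tested genes called lower in PMMA bone than in BNED and 3.51% called higher. The median over the members was -2.12, against -0.01 over all tested genes. In 6 of the 10 members every PMMA bone library lay below every BNED library, which was the case for 7.05% of tested genes.

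Camp had 12.2, 15.5, 17.3 and 14.1 CPM in PMMA bone of rats 1 to 4, against 77.1, 132, 96.5 and 65.1 CPM in BNED. Ngp had 17.7, 19.6, 25.0 and 15.6 CPM in PMMA bone, against 129, 224, 159 and 43.2 CPM in BNED. For both secondary granule genes the PMMA bone libraries lay close together and below all BNED libraries, nearest for Ngp in BNED of rat 4. Camp was 6.27-fold lower (log2 fold change -2.65, SE 0.68, edgeR adjusted p = 0.0397) and Ngp 7.12-fold lower (log2 fold change -2.83, SE 0.65, edgeR adjusted p = 0.0313).

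S100a9 had 265, 86.6, 118 and 98.3 CPM in PMMA bone, against 593, 673, 676 and 568 CPM in BNED. S100a8 had 133, 47.9, 63.7 and 55.3 CPM in PMMA bone, against 320, 347, 388 and 358 CPM in BNED. The 2 subunits again moved as a pair, with rat 1 the highest of the PMMA bone libraries and all BNED libraries above it. S100a9 was 4.42-fold lower (edgeR adjusted p = 0.0401) and S100a8 4.71-fold lower (edgeR adjusted p = 0.0468) in PMMA bone. The read ratio of S100a8 to S100a9 was 0.539 ± 0.0266 in PMMA bone and 0.565 ± 0.0493 in BNED (SD, n = 4 each).

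The primary granule genes were split by a single library. Mpo had 57.0, 9.22, 10.6 and 16.6 CPM in PMMA bone, against 77.0, 145, 98.7 and 57.1 CPM in BNED. PMMA bone of rat 1 lay just under the lowest BNED library, while the other 3 stood well below. Ctsg had 21.9, 4.82, 4.87 and 7.47 CPM in PMMA bone, against 36.1, 71.8, 44.3 and 27.5 CPM in BNED. Elane ran from 2.49 to 11.9 CPM in PMMA bone and from 10.2 to 36.5 CPM in BNED, and Prtn3 from 1.51 to 5.56 CPM in PMMA bone and from 5.27 to 19.7 CPM in BNED. For all 4 genes rat 1 was the highest of the PMMA bone libraries, and the fold changes of -2.02 (Mpo), -2.10 (Elane), -2.02 (Prtn3) and -2.21 (Ctsg) had edgeR adjusted p of 0.132, 0.113, 0.116 and 0.0903. Without that library, 8 members were called lower, and Mpo stood at -2.96 (edgeR adjusted p = 0.0188), Elane at -2.95 and Ctsg at -2.97. The same library carried the high erythroid share, whose part in the result was not tested.

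The bone calls also depended on single libraries in the other direction: 0 members were called without PMMA bone of rat 2, 3 or 4 or without BNED of rat 1, 2 or 3, and Ngp alone without BNED of rat 4. With rat as a replicate block, Camp and Ngp were called and S100a8 and S100a9 had edgeR adjusted p of 0.0646 and 0.0559. With the erythroid covariate 0 members were called, Ngp standing at -2.62, Camp at -2.58 and S100a9 at -1.55. Mpo, not called in the main fit, stood at -0.83 with that covariate, against -2.02 without it.

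**Figure D2:**
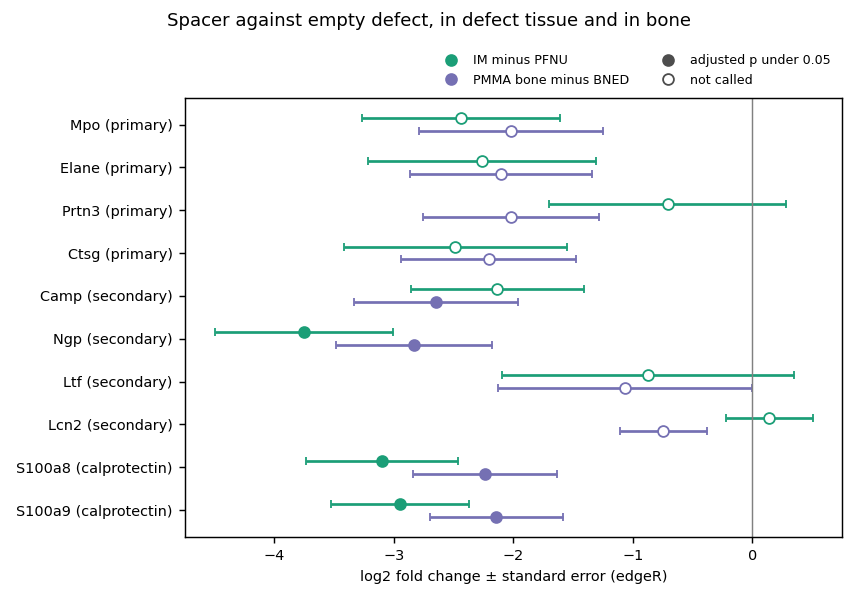
The log2 fold change of each member is plotted with its standard error, for IM minus PFNU (green) and PMMA bone minus BNED (purple); filled points have an adjusted p under 0.05. All points except that of Lcn2 in defect tissue lie below 0, and the filled points are those of Ngp, S100a8 and S100a9 in both tissues and of Camp in bone.

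Whether the gap between spacer side and empty side differed between defect tissue and bone was tested as an interaction. This was the log2 fold change of IM over PFNU minus that of PMMA bone over BNED. None of the 10 members was called by edgeR, nor any at an unadjusted p under 0.05, and DESeq2 and limma-voom also called 0 members. Over all tested genes edgeR called 0%, with 1149 genes at an unadjusted p under 0.05, against 136 genes called by DESeq2 and 0 by limma-voom. The difference was -0.80 (SE 0.76) for S100a9, -0.92 (SE 0.93) for Ngp and 0.89 (SE 0.51) for Lcn2, whose adjusted p of 0.652 (edgeR) was the lowest of the members. Standard errors of this size leave room for differences of more than 1 log2 unit between the tissues.

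Defect tissue was next set against bone of the same limb. These comparisons reuse the libraries of the spacer comparisons, so their values are not independent of those above. In the spacer limb 9 of the 10 members fell in IM against PMMA bone, where 11.0% of tested genes were called lower and 11.3% higher. In the empty limb 9 of the 10 fell in PFNU against BNED, where 15.2% of tested genes were called lower and 15.0% higher. Ltf was the gene not called in either. Prtn3 and Ctsg are among the 9 in both limbs, although they passed the filter only through bone.

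Prtn3 and Ctsg passed the filter through the bone libraries in which they were high. They had 15 and 22 counts in all of IM and 22 and 113 in all of PFNU. Their calls in these comparisons are thus no separate support, and the sizes of their fold changes carry little weight. Ctsg had a log2 fold change of -6.55 (SE 0.97) in IM against PMMA bone and -6.27 (SE 0.90) in PFNU against BNED. Prtn3 stood at -5.27 (SE 0.93) in the spacer limb and -6.58 (SE 0.94) in the empty limb. Elane stood at -5.86 (SE 0.97) in the spacer limb and -5.70 (SE 0.91) in the empty limb. It had 19 counts in all of IM, 18 of them in rat 2. Over single libraries left out, its value in the spacer limb ran from -9.17 to -5.01. S100a9 stood at -4.97 in the spacer limb and -4.17 in the empty limb, and Ngp at -6.05 and -5.13. S100a9 and Ngp had edgeR adjusted p of at most 0.000333 in the spacer limb and at most 0.000330 in the empty limb. For Elane these were 0.00156 and 0.000518. With the erythroid covariate in the fit, 4 members (Camp, Ngp, S100a8 and S100a9) remained called in the spacer limb and 0 in the empty limb.

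The proportion of Ctsg to Mpo reads also differed in range between defect tissue and bone. Ctsg had 0.0667 to 0.333 reads per read of Mpo in IM and 0.0345 to 0.196 in PFNU, against 0.384 to 0.523 in PMMA bone and 0.449 to 0.495 in BNED. The defect libraries all lay below the bone libraries, although in IM the Ctsg reads numbered 22 in all. This was not so for the other proteases: Elane had 0 to 0.254 reads per read of Mpo in IM and 0.08 to 0.471 in PFNU, against 0.189 to 0.302 in PMMA bone and 0.179 to 0.252 in BNED, and the ranges of Prtn3 overlapped as well. Within bone the ratio of Ctsg to Mpo was 0.454 ± 0.0571 next to the spacer and 0.474 ± 0.0198 next to the empty defect (SD, n = 4 each), a difference smaller than the spread.

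Lcn2 parted from the other secondary granule genes. It had 6.43, 25.6, 17.3 and 18.0 CPM in IM, against 13.8, 14.5, 18.2 and 14.8 CPM in PFNU. The PFNU libraries lay inside the range of IM, and the log2 fold change was 0.14 (SE 0.36, edgeR adjusted p = 0.905). In bone it had 24.5, 40.8, 52.5 and 30.2 CPM in PMMA bone, against 62.6, 98.4, 50.5 and 36.7 CPM in BNED, with overlap and no call (log2 fold change -0.75, SE 0.36, edgeR adjusted p = 0.222). Between defect tissue and bone it differed by -1.13 (SE 0.37, edgeR adjusted p = 0.0386) in the spacer limb and -2.02 (SE 0.38, edgeR adjusted p = 0.00138) in the empty limb.

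Set against Ngp, Lcn2 had 19.7 to 299.7 reads per read of Ngp in IM, 1.66 to 23.6 in PFNU, 1.38 to 2.10 in PMMA bone and 0.318 to 0.849 in BNED. The PMMA bone libraries all lay above the BNED libraries in this ratio, and IM overlapped PFNU only at its lowest library. In IM the ratio divides by 17, 35, 3 and 9 reads of Ngp in rats 1 to 4, so its size there is uncertain. It also carries the changes of Ngp given above. Across the 16 libraries the log2 CPM of Lcn2 had a Pearson r of 0.421 with Ltf, a gene with few counts. With the remaining members its r was 0.742 to 0.876. Ltf had r of 0.604 to 0.755 with those members, and S100a8 and S100a9 had r = 0.997 with each other. These correlations span 4 tissues from 4 rats and so share the tissue differences.

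Ltf, lactoferrin, an iron-binding protein of the secondary granules, was barely counted. It had 11, 0, 0 and 0 counts in IM, 0, 10, 9 and 0 in PFNU, 11, 5, 10 and 7 in PMMA bone, and 13, 26, 14 and 19 in BNED. BNED was highest by count, and the fold changes of -0.87 in IM against PFNU and -1.06 in PMMA bone against BNED had SEs above 1 (edgeR adjusted p = 0.806 and 0.564). No difference in Ltf was detectable from so few counts in the spacer comparisons. Counts were low even in BNED, where Camp had 2979 to 11220; the gene model behind the Ltf counts is not stated, so a low transcript level and incomplete counting cannot be told apart.

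The balance between the 3 classes was described within each library. The measure was the mean log2 CPM of a class minus that of the primary granule genes. A common loss or gain cancels only where counts lie well above the prior count of 2. That was not so in IM, where Elane, Prtn3, Ctsg and Ltf had at most 18 counts in any library. Nor was it so in PFNU, where Prtn3 had at most 15 counts and Ltf at most 10. In bone it was not so for Ltf, with 5 to 11 counts in PMMA bone and 13 to 26 in BNED. The prior count thus also weighs on the secondary class there. The secondary class stood at 1.95 ± 1.35 in IM and 1.93 ± 0.48 in PFNU, and at 0.10 ± 1.12 in PMMA bone and -0.45 ± 0.21 in BNED (SD, n = 4 each). That class includes Lcn2 and Ltf; with Camp and Ngp alone it stood at 1.06 ± 1.66 in IM and 2.44 ± 0.14 in PFNU, and at 1.48 ± 1.20 in PMMA bone and 1.82 ± 0.17 in BNED. The sign of the difference between the spacer side and the empty side thus turned with the choice of genes in both tissues. Calprotectin stood at 4.17 ± 1.42 in IM, 5.57 ± 0.70 in PFNU, 3.96 ± 0.46 in PMMA bone and 4.00 ± 0.62 in BNED. The gap between IM and PFNU depended on the measure. From summed CPM calprotectin stood at 3.33 ± 2.39 in IM and 3.70 ± 0.77 in PFNU. With a prior count of 0.5 it stood at 4.88 ± 1.84 in IM and 5.87 ± 0.82 in PFNU.

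**Figure D3:**
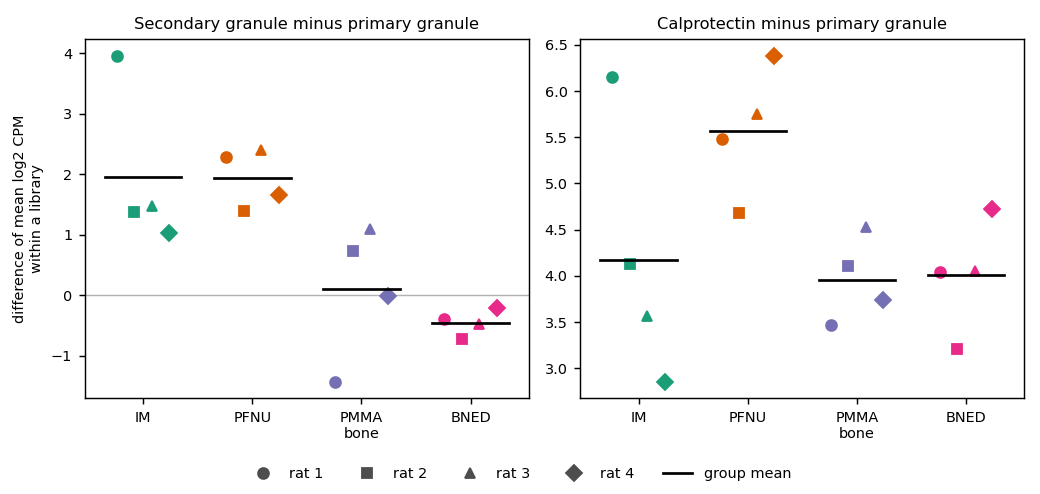
For each library, the mean log2 CPM of the secondary granule genes (left) or of the calprotectin genes (right) minus that of the primary granule genes is plotted by group; points are shaped by rat and black lines are group means. PMMA bone of rat 1 is the lowest point on the left at -1.43, and IM of rat 1 the highest at 3.96.

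In PMMA bone of rat 1 the classes came apart. Ngp had 0.311 reads per read of Mpo there, against 2.13, 2.37 and 0.936 in PMMA bone of rats 2 to 4 and 1.68, 1.54, 1.61 and 0.757 in BNED. That library therefore had primary granule transcripts near the BNED level and Camp and Ngp at the level of the other PMMA bone libraries.

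The wider granule program, outside the 10 genes, was read from lists of other granule and membrane proteins, of granulocyte regulators and of genes of mature neutrophil function. Of 21 tested genes for other granule proteins, 5 fell and 0 rose in IM against PFNU. They were Mmp8, neutrophil collagenase; Cd177, a surface glycoprotein of secondary granules; and the defensins Np4, Defa5 and RatNP-3b. Defa5 and RatNP-3b were named after their values were seen. The defensin copies are near-identical, so how their reads were shared is uncertain. Mmp8 averaged 0.608 ± 0.323 CPM in IM and 5.36 ± 3.02 CPM in PFNU (SD, n = 4 each). Its edgeR log2 fold change was -3.13 with SE 0.59 (adjusted p = 0.0266). Cd177 had 1 count in all IM libraries together, against 119 in PFNU (edgeR adjusted p = 0.0349). With the replicate block 0 of the 5 were called, and Mmp8 had an edgeR adjusted p of 0.0511.

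In bone, 5 of the 21 fell and 1 rose in PMMA bone against BNED. Ceacam1, an adhesion receptor of granulocytes and other cells, averaged 22.4 ± 3.71 CPM in PMMA bone and 47.9 ± 12.99 CPM in BNED (SD, n = 4 each; log2 fold change -1.10, SE 0.20, edgeR adjusted p = 0.0182). Srgn, serglycin, the proteoglycan that packs granule proteins, averaged 112 ± 37.5 CPM in PMMA bone and 244 ± 19.3 CPM in BNED (log2 fold change -1.12, SE 0.23, edgeR adjusted p = 0.0230). Pglyrp1, Serpinb1a and Np4 also fell, and were named after their values were seen. The gene that rose was Arg1, arginase, which rat macrophages also make, with 12.8 ± 10.8 CPM in PMMA bone and 1.60 ± 0.725 CPM in BNED (SD, n = 4 each; edgeR adjusted p = 0.0315). With the replicate block 3 fell and 0 rose, and Arg1 had an edgeR adjusted p of 0.0540.

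Of 16 tested genes on the list of granulocyte regulators, 0 were called in either spacer comparison, with 4 at an unadjusted p under 0.05 in each. Cebpe, the C/EBP factor that mouse myelocytes need for secondary granules, averaged 1.08 ± 0.530 CPM in PMMA bone and 2.79 ± 1.03 CPM in BNED (log2 fold change -1.37, SE 0.47, edgeR adjusted p = 0.0973). Rara stood at 0.56 (edgeR adjusted p = 0.106) in that comparison. In IM against PFNU, Cebpd stood at 1.01 (edgeR adjusted p = 0.152) and Csf2ra, a chain of the GM-CSF receptor, at 0.97 (edgeR adjusted p = 0.167).

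Of 25 genes of mature leukocyte function, 1 rose in IM against PFNU and 1 fell in PMMA bone against BNED, and both calls were Alox5. Alox5 encodes 5-lipoxygenase, the leukotriene-forming enzyme that several leukocytes share. It averaged 33.5 ± 6.94 CPM in IM and 16.7 ± 4.94 CPM in PFNU (SD, n = 4 each). Its log2 fold change there was 1.00 with SE 0.22 (edgeR adjusted p = 0.0428, or 0.0502 with the replicate block). In bone it averaged 19.96 ± 1.68 CPM next to the spacer and 38.6 ± 8.35 CPM next to the empty defect (log2 fold change -0.95, SE 0.22, edgeR adjusted p = 0.0294). The difference between these log2 fold changes was 1.96 (SE 0.31) and did not pass (edgeR adjusted p = 0.0674). Alox5ap, the protein that activates it, stood at 1.24 (SE 0.28, edgeR adjusted p = 0.0545) in IM against PFNU.

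Other genes with a like course were sought among 10001 genes averaging 5 CPM or more, by Pearson correlation of log2 CPM with the mean of each class over the 16 libraries. The eosinophil granule genes Prg2 (r = 0.991) and Epx (r = 0.978) lay closest to the primary class, followed by Np4, Rhd and Defa5. Prg2 encodes major basic protein and averaged 0.307 ± 0.164 CPM in IM, 1.85 ± 2.39 CPM in PFNU, 30.7 ± 24.5 CPM in PMMA bone and 109 ± 43.6 CPM in BNED. RatNP-3b was closest to calprotectin (r = 0.991), followed by Mmp8, Pde6h, Np4 and Defa5, and also to the secondary class (r = 0.967), followed by Np4, Pde6h, Cd72 and Cd177. The 16 points share 4 tissues, 4 rats and 1 table.

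Markers of several other marrow cells moved alongside and those of others did not, and their part in the results was not tested. The 15 erythroid genes summed to 426 to 1710 CPM in IM and 1095 to 5998 CPM in PFNU, and to 4991 to 80660 CPM in PMMA bone and 38106 to 72887 CPM in BNED; 0 of them were called in either spacer comparison, with medians of -1.81 and -1.12. Of 11 B cell genes, 8 fell in IM against PFNU and 6 in PMMA bone against BNED, with sums of 62.5 to 97.8 CPM in IM, 82.4 to 149 CPM in PFNU, 216 to 510 CPM in PMMA bone and 849 to 1213 CPM in BNED. Eosinophil and mast cell genes summed to 21.1 to 66.5 CPM in IM, 78.9 to 263 CPM in PFNU, 339 to 632 CPM in PMMA bone and 1041 to 1132 CPM in BNED, with 1 of 10 called lower in defect tissue and 0 in bone. None of these lists had a marker at 0 in every library of a group. Macrophage genes took another course, with 1913 to 3302 CPM in IM, 807 to 1795 CPM in PFNU, 1422 to 2009 CPM in PMMA bone and 1299 to 1551 CPM in BNED, and 0 of 10 called in either spacer comparison; Marco was at 0 in all IM and all BNED libraries. Monocyte genes, which matter because monocytes also make calprotectin, summed to 320 to 833 CPM in IM, 308 to 439 CPM in PFNU, 349 to 553 CPM in PMMA bone and 250 to 336 CPM in BNED, with 0 of 6 called in either spacer comparison. Genes of this list went different ways, so the sum does not give the course of monocytes. Over IM, PFNU, PMMA bone and BNED, Cd14 averaged 134, 44.9, 48.7 and 24.4 CPM. Fcnb, also among the other granule genes, averaged 7.47, 16.4, 34.6 and 98.8 CPM. Of 12 cell cycle genes, 0 were called in either spacer comparison and 12 fell in defect tissue against bone of both limbs. Muscle genes took 2.26% to 20.5% of counts in IM and 6.30% to 15.3% in PFNU, against 0.198% to 1.25% in PMMA bone and 0.391% to 4.32% in BNED. Platelet genes summed to 147 to 214 CPM in IM, 127 to 198 CPM in PFNU, 91.8 to 152 CPM in PMMA bone and 85.5 to 134 CPM in BNED. These sums do not give the course of platelets, because the genes went different ways. Over the groups in that order, Ppbp averaged 0.0299, 0.629, 2.10 and 10.7 CPM. Gp5 averaged 0.0584, 0.209, 0.964 and 6.61 CPM, and Gp9 0.125, 0.131, 0.782 and 3.54 CPM. Pf4 did not step up in this way, with 42.0, 27.6, 28.4 and 53.5 CPM. Of 5 platelet genes, 0 were called in IM against PFNU, and 1 rose and 1 fell in PMMA bone against BNED (medians -0.03 and -2.18). Of 6 progenitor genes, 1 fell in each spacer comparison. Osteoclast genes took 0.892% to 1.93% of counts in PMMA bone and 0.378% to 0.672% in BNED, with 0 of 7 called in either spacer comparison.

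**Figure D4:**
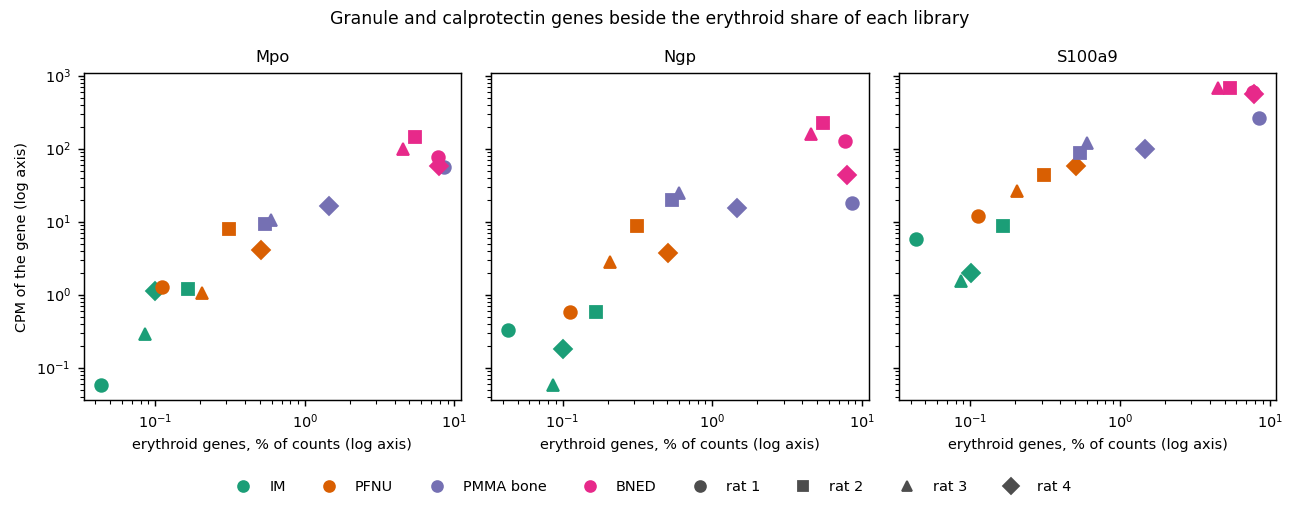
The CPM of Mpo, Ngp and S100a9 (vertical, log axis) is plotted against the percentage of counts in erythroid genes (horizontal, log axis) for the 16 libraries, coloured by group and shaped by rat. PMMA bone of rat 1, at 8.53% on the horizontal axis, has a Mpo level at the bottom of BNED and a Ngp level of 17.7 CPM, below all 4 BNED libraries.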

How the data were processed

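RNA-seq was made from 4 tissues of 4 rats (16 libraries). Per the labels' protocols, Trizol-extracted, DNase-treated RNA went into stranded TruSeq poly-A libraries read from both ends. Tools named in the submitters' processing notes are Bowtie2 2.2.1, TopHat2 2.0.13, DESeq2 and FastQC 0.11.3, with genome build rn5; the counting program, annotation and strand setting are not given in the sources used here, so overlapping and antisense genes cannot be told apart. The values deposited by the authors were raw whole-number counts per gene symbol, not normalised.

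Groups and rats came from each library's own label. Counts were fitted with edgeR 4.0.16 (R 4.3.3; TMM, filterByExpr with a minimum count of 10, glmQLFit and glmQLFTest) in 1 model of 4 group means, with Benjamini-Hochberg adjustment over all 12857 genes; the procedure was tested on simulated data. log2 CPM used a prior count of 2. Alternatives were RLE size factors, no filter, DESeq2 1.42.0, limma-voom (limma 3.58.1), a rat block, an erythroid covariate, the compared libraries alone and each library left out.

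The labels give the same 4 rats to every group, so libraries pair by animal; same-rat correlations of deviations were -0.07 to 0.50 for IM with PFNU and -0.07 to 0.49 for PMMA bone with BNED. No libraries of 1 group were duplicates (chi-square per degree of freedom of 80.6 or more).

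The members and gene lists were chosen with earlier results of these data known. All 10 members are named. From 3 lists (other granule genes, granulocyte regulators, mature function), the 3 called genes with the smallest adjusted p in each spacer comparison are named, or, with fewer than 3 called, the 2 with the smallest p; 1 gene that this rule names is not reported here. The 5 genes most alike to each class are named by Pearson r.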

Additional observations from a re-analysis of the deposited data

Results flagged for a closer look

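Within each group of 4 libraries, a library was singled out where its gap to its nearest neighbour exceeded Dixon's 95% critical value for the group's range. This was asked of 48 groups and 6 were singled out; chance flags about 1 in 20 groups. In 3 of them the library was PMMA bone of rat 1, which had 57.0 CPM of Mpo (next highest 16.6), 11.9 CPM of Elane (next highest 3.14) and 21.9 CPM of Ctsg (next highest 7.47). The other 3 were in IM. Elane stood at 0.301 CPM in rat 2, against 0.0197 CPM in the next library, a matter of 18 counts against 1. Ltf stood at 0.211 CPM in rat 1, from 11 counts, against 0 in the other 3 libraries. The secondary minus primary difference stood at 3.96 log2 units in rat 1, against 1.47 in the next library.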

How the results depend on the processing

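For IM against PFNU, where 3 members were called, DESeq2 called 4 (adding Mpo), limma-voom 0, the replicate block 1, the erythroid covariate 0 and a fit of the 8 compared libraries 0 (of 7 members that passed its filter); leaving out 1 library gave 0 to 3. For PMMA bone against BNED, where 4 were called, DESeq2 called 7, limma-voom 8, the replicate block 2, the erythroid covariate 0 and the compared libraries alone 7; leaving out 1 library gave 0 to 8. The erythroid covariate left 4 members called in IM against PMMA bone and 0 in PFNU against BNED, and leaving out 1 library gave 8 to 9 and 9 to 9. The replicate block changed the call of no other member. RLE size factors and no filter called the same members in the spacer comparisons. The cause of these changes was not tested.

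The secondary minus primary difference between IM and PFNU was 0.027, against 2.37 from summed CPM and -1.38 with Camp and Ngp only, a choice made after seeing the data; between PMMA bone and BNED it was 0.55, against -0.34 with Camp and Ngp only.

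Signs of the members' fold changes turned only for changes that were not called. In IM against PFNU, Lcn2 was -0.0049 under limma-voom and -0.027 with the erythroid covariate, and -0.14 to 0.43 over single libraries left out; Prtn3 was 0.30 with the covariate and -1.74 to 0.42 over libraries. In the interaction, limma-voom gave Ctsg 0.44, Camp -0.76 and Ltf -0.13, and the covariate gave Mpo 0.047, Elane 0.14 and Ctsg 0.16. Over libraries left out, the interaction ran from -0.88 to 0.52 for Mpo, -3.48 to 0.69 for Elane, -0.78 to 1.00 for Ctsg, -0.51 to 1.16 for Camp and -4.34 to 0.79 for Ltf. Low counts limited Ltf, Prtn3, Elane and Ctsg in defect tissue.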
